A study of Mus musculus with 2 samples.

Results

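EGR1 binding was examined at 9 genes that mark microglia, the resident macrophages of the brain. The genes were Cx3cr1, P2ry12, Tmem119, Csf1r, Aif1, Itgam, Trem2, C1qa and Sall1, among 21938 protein-coding genes. A peak was assigned to a gene where the middle of the peak lay in the gene body or within 10 kb of an annotated transcription start site (TSS), and by this rule 6 of 12014 EGR1 peaks fell to these genes. The peaks came from EGR1 ChIP-seq, the sequencing of DNA that is recovered with an antibody to EGR1, on frontal cortices of male C57BL6N/129SvEv F1 mice at 6 weeks, for which no engineered allele and no treatment is given. Cortices of 4 to 5 mice were pooled for a ChIP experiment, and 2 such experiments were merged into 1 deposited list, so there was no second condition, no replicate value and no test. Each peak has a position on mm10 and an irreproducible discovery rate (IDR), which is low where a peak ranked high in both experiments and which reached at most 0.02. The input DNA was not analysed here, and the reads behind a peak are unknown.

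EGR1 is a zinc finger protein of the immediate early genes, made in neurons after activity and in myeloid cells during their differentiation, and it binds GC-rich DNA. Microglia derive from yolk sac precursors and depend on CSF1R, on the ETS factor PU.1 and on TGF-beta signalling, and Sall1 is a regulator of their identity. They sense neurons through receptors such as CX3CR1 and P2RY12, while the matching signals, such as CX3CL1 and CD200, are made largely by neurons. Cortex is a mixed tissue with few microglia. Whether a site was bound in few cells or not at all, and which cells carried a peak, cannot be told apart in this list.

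By the rule, 4 of the 9 microglia identity genes had a peak (44.4%), beside 39.6% of all protein-coding genes. The share was below the background where RefSeq gene models were used (P2ry12 and C1qa, 22.2%, beside 38.3%). The same held where only the distance to a TSS counted (Aif1 and C1qa, 22.2%, beside 37.2%). It was also below with the body and 2 kb around a TSS (22.2%, beside 34.2%) and at an IDR of 0.01 or less (33.3%, beside 37.0%). Without transcripts of support level 5, the lowest level of the annotation, it was 33.3%, beside 40.0%. The share was above the background at an IDR of 0.001 or less (33.3%, beside 29.0%) and with the body and 50 kb (77.8%, beside 58.7%). By the rule itself, Cx3cr1 had 3 peaks, and P2ry12, Aif1 and C1qa had 1 each. Tmem119, Csf1r, Itgam, Trem2 and Sall1 had 0. None of the 9 genes had a peak within 2 kb of a TSS, where 29.6% of protein-coding genes had one. None of the 6 peaks lay nearest to the TSS of the identity gene it was assigned to. Counted by gene, 0 of the 9 had an assigned peak nearest to their own TSS, beside 29.1% of protein-coding genes. With RefSeq gene models 1 of the 2 assigned peaks, that of P2ry12, lay nearest to its own gene. The map of the 9 loci shows the spacing.

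**Figure D1:**
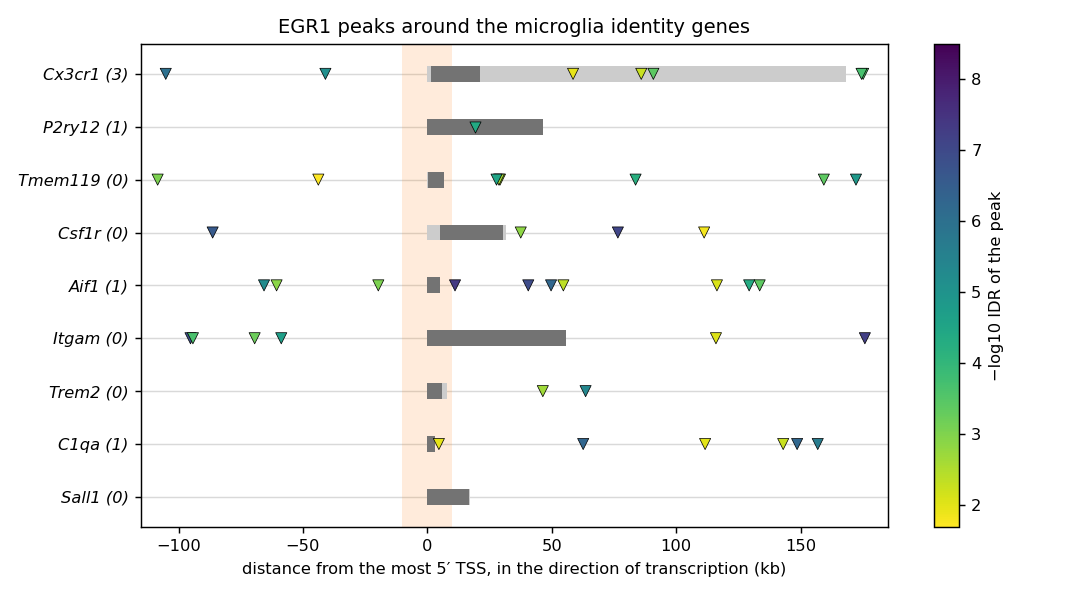
EGR1 peaks (triangles) to both sides of the most 5′ TSS of each microglia identity gene, in kb along the direction of transcription. Pale bars are gene bodies of GENCODE M21, dark bars those of RefSeq, the shaded band is 10 kb to each side of that TSS, colour is −log10 of the IDR and the number of assigned peaks follows each name. The 3 peaks of Cx3cr1 lie in the pale bar only, the peak of P2ry12 lies in its dark bar, that of C1qa lies just past the end of its body, and the line of Sall1 has no triangle in the range drawn.

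The sequences of assigned peaks are shown first, because they carry what EGR1 could have contacted. They were read from the plus strand of mm10, and capitals mark matches, with at most 1 mismatch, to the 9-base EGR words GCGTGGGCG and GCGGGGGCG on either strand. The peak of P2ry12 (chr3:59243487-59243736), that of C1qa (chr4:136894056-136894319) and those of Cx3cr1 next to Csrnp1 (chr9:119978950-119979213 and chr9:119983813-119984076) are given whole, in this order.
P2ry12: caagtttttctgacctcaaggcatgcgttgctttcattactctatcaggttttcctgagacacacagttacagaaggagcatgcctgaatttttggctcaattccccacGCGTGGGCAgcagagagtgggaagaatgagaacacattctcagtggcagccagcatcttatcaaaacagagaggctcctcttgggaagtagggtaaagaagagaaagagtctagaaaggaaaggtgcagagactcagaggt
C1qa: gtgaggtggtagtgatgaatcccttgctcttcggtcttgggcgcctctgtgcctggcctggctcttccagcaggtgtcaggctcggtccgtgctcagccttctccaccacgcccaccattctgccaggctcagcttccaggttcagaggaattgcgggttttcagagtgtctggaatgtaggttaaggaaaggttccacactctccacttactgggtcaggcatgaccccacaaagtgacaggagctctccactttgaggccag
Cx3cr1, nearest to Csrnp1, intronic: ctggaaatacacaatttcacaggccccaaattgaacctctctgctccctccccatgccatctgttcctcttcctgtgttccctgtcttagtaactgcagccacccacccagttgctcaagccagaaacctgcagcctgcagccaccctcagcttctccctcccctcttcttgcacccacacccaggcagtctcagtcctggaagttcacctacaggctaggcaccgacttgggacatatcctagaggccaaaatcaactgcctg
Cx3cr1, nearest to Csrnp1, at its start: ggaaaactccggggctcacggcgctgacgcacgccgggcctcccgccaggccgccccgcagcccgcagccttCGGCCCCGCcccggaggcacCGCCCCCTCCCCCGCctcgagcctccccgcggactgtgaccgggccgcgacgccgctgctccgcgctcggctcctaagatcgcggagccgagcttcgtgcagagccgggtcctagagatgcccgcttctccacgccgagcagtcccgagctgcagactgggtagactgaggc

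The peak of Aif1 overlaps a UTR of a neighbouring gene and is shown only as the 30 bases around its EGR-like match, on the minus strand at chr17:35164890-35164919.
Aif1: ggggggtgttcCCGGGGGCGgcggttgccc
No assigned peak held an exact EGR word, against 16.6% of all peaks on assembled chromosomes. In the 500 bp around the peak centre, 1 of the 6, that of Aif1, held an exact word (16.7%), beside 18.2% of all peaks. With 1 mismatch allowed, 4 of the 6 peaks held a match (66.7%), beside 69.8% of all peaks. Positions in the word are counted from 1 at its 5′ end, with the base of the word first. The P2ry12 peak has G9A, the Aif1 peak has G1C, and the peak at the Csrnp1 start has G7C, C2A and C8A in 3 matches. The ETS word GAGGAAGT, which PU.1 can bind, and the AP-1 words TGACTCA and TGAGTCA were in 0 of the 6 peaks, against 1.74% and 4.72% of all peaks. A match is a description of the letters and not a bound site.

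Among the receptors, Cx3cr1 encodes the fractalkine receptor and lies on the minus strand at chr9:119901616-120069879 in GENCODE. Its 3 peaks had an IDR of 0.000394, 0.00520 and 0.0114, which rank 6185, 9490 and 10893 among the 12014 peaks from the lowest IDR upwards. They lay 89.2, 84.3 and 56.9 kb downstream of the closest Cx3cr1 TSS. The peak with the lowest IDR was intronic in Csrnp1 and 1746 bp from its TSS, and the next was 165 bp from the Csrnp1 TSS. The last lay in an exon of the long noncoding RNA Gm49427, 1541 bp from its TSS. With RefSeq transcripts the nearest TSSs were, in the same order, those of Csrnp1 at 630 bp, Gm33800 at 99 bp and Xirp1 at 12239 bp. Csrnp1 encodes a nuclear protein first known as an axin-induced gene. All 3 peaks are in the body of Cx3cr1 only through 1 annotated transcript of support level 5, the lowest level, that spans 166.7 kb. The RefSeq body of Cx3cr1 (chr9:120048683-120068296, 19.6 kb) held 0 peaks. The peak closest to a Cx3cr1 TSS lay 40973 bp upstream, at chr9:120110721-120110984 with an IDR of 7.03e-06, and 428 bp from the TSS of Slc25a38, a mitochondrial glycine carrier.

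P2ry12 is the purinergic receptor by which microglial processes sense ADP. Its peak was the only one of the 6 inside the body of its assigned identity gene in both annotations. P2ry12 lies on the minus strand at chr3:59216272-59262871, within the body of Med12l, a Mediator subunit gene on the opposite strand. The peak had an IDR of 3.97e-05, with rank 4511, and was intronic in both genes. It lay 19220 bp downstream of the 5′ TSS of the best supported transcript that spans the gene, 16030 bp upstream of an internal P2ry12 TSS of support level 5, and 13451 bp from the closest TSS of Med12l. With RefSeq transcripts the peak was nearest to P2ry12, at 19374 bp. It had a GC content of 46.8% and 3 CpG dinucleotides, and its observed/expected CpG ratio, 0.224, was at the 15.3th percentile of all peaks. Going upstream from P2ry12, the next peak came only after 1030 kb, and no other peak lay within 100 kb of a P2ry12 TSS.

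Csf1r encodes the receptor for CSF1 and IL-34, on which microglia depend for survival, and had 0 assigned peaks over 41.6 kb searched. Its nearest peak lay 32237 bp from a TSS (chr18:61137992-61138241, IDR 0.00137), past the end of the gene and 497 bp from the TSS of the noncoding gene Gm26403. Neighbouring Pdgfrb, the PDGF receptor of pericytes, also had no assigned peak, at 30.8 kb, while Slc26a2, a sulfate transporter on the other side, had 1 at 189 bp from its TSS.

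Trem2, a lipid-sensing receptor that signals through TYROBP, had 0 peaks. Its nearest was 46295 bp away (chr17:48392660-48392909, IDR 0.00216) and 439 bp from the TSS of Nfya, a subunit of the CCAAT-binding factor NF-Y. Upstream of Trem2 no peak occurred for 424.1 kb. Its neighbours Treml1, a related receptor, and B430306N03Rik had none either, with the nearest peaks at 32.9 and 76.4 kb. Itgam encodes CD11b, the alpha subunit of complement receptor 3, and is the longest of the 9 genes by its RefSeq body at 55.9 kb. It held 0 peaks, and the nearest was 58717 bp upstream (chr7:128003799-128004048, IDR 1.99e-05), 26 bp from the TSS of Trim72, a membrane repair protein. The adjacent Itgax, the CD11c gene, had 0 as well, at 31.1 kb.

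Of the other surface and cytoplasmic markers, Tmem119, a membrane protein used to tell microglia from other macrophages, had 0 peaks. Its nearest lay 27710 bp away (chr5:113772612-113772861, IDR 3.00e-05) and 12 bp from the TSS of Iscu, a scaffold of iron-sulfur cluster assembly, which had 3 assigned peaks. On the other side Selplg, the P-selectin ligand and itself a gene of microglia, had 0 peaks and its nearest at 11691 bp. Aif1 encodes IBA1, the calcium-binding protein by which microglia are usually stained. Its peak had the lowest IDR of the 6, at 4.64e-08 with rank 376, but lay 68 bp from the TSS of Prrc2a, a broadly used gene for an RNA-binding protein, and 6893 bp from the closest Aif1 TSS. That TSS belongs to a transcript that spans 0.868 kb, the starts at the 5′ end of Aif1 lay 11036 and 11103 bp from the peak, and with RefSeq, at 11087 bp, Aif1 had 0 peaks. The Aif1 locus was the most peak-dense of the 9, with 7 peaks within 100 kb of a TSS.

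C1qa encodes a chain of C1q, the starter of the classical complement cascade, and shares its locus with C1qb and C1qc. The intergenic peak assigned to it lay 4616 bp downstream of the C1qa TSS and 1122 bp upstream of the C1qc TSS, between both genes. C1qb was also assigned this peak, at 8000 bp, so all 3 chain genes were counted from the same peak. Its IDR was 0.0108, with rank 10787, among the higher IDR values of the list.

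Sall1, the zinc finger regulator of microglial identity, stood farthest from any peak. The closest lay 347.1 kb away (chr8:88696967-88697139, IDR 4.25e-08), 6 bp from the TSS of Cyld, a deubiquitinase. Counting from the 5′ end of Sall1, 1786 kb of sequence upstream held none, and the next gene on that side, Tox3, had its nearest peak at 481.4 kb. By distance Sall1 was at the 86.5th percentile of protein-coding genes.

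Over the 9 genes the distance from the closest TSS to a peak ran from 4616 bp for C1qa to 347109 bp for Sall1, with a median of 32237 bp, close to the 30624 bp of all protein-coding genes. In ascending order the genes were C1qa, Aif1, P2ry12, Tmem119, Csf1r, Cx3cr1, Trem2, Itgam and Sall1. There is no spread to say which neighbours in this order differ. The cumulative plot of distances shows where the identity genes stand. The curve of all genes climbs early, to 29.6% at 2 kb, and all 9 genes lie on its later part, from the 32.3th percentile upwards.

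**Figure D2:**
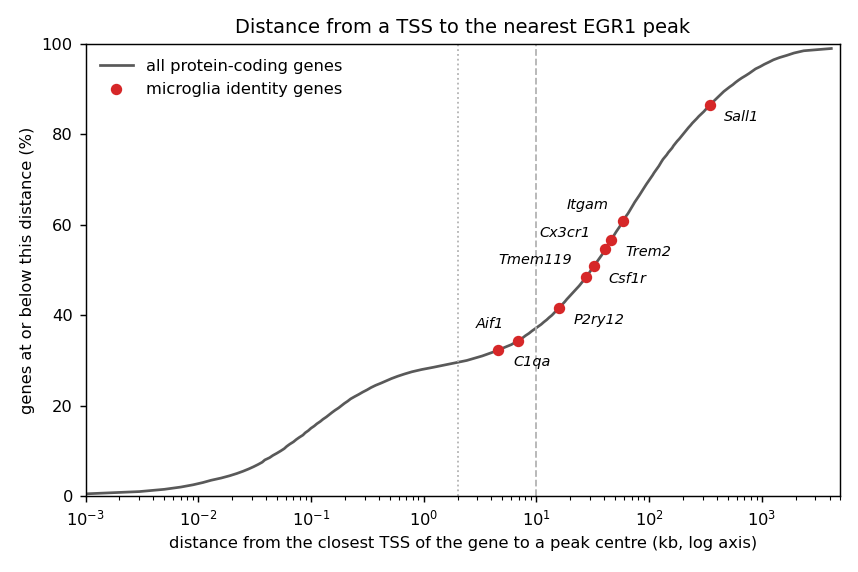
Share of protein-coding genes (line, percent) with a peak at or below a given distance from their closest TSS (kb, log axis), with the 9 microglia identity genes as points. The dotted line is 2 kb and the dashed line 10 kb. C1qa and Aif1 lie between these lines, and the other 7 genes lie beyond 10 kb.

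The just-inside and just-outside values at the 10 kb limit were few. Aif1 and C1qa had 1 peak each within 10 kb of a TSS, P2ry12 and Aif1 had 1 each between 10 and 20 kb, and no other identity gene had a peak in either range. Within 100 kb the counts were 4 for Cx3cr1, 1 for P2ry12, 5 for Tmem119, 3 for Csf1r, 7 for Aif1, 4 for Itgam, 2 for Trem2, 2 for C1qa and 0 for Sall1.

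The assigned peaks differed widely in composition. The observed/expected CpG ratio, in which lower values mean fewer CpG dinucleotides than the base content would give, was 0.0594 in the intronic Csrnp1 peak and 0.965 in the peak at the Csrnp1 start. It was 0.727 in the Aif1 peak, 0.282 in the C1qa peak and 0.224 in the P2ry12 peak. The P2ry12, C1qa and intronic Csrnp1 peaks were thus poor in CpG, and the Aif1 peak and the peak at the Csrnp1 start were rich in it. The median IDR of the 6 was 0.00280, against 0.000325 over all peaks, and the values ran over most of the list, from rank 376 to rank 10893.

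The promoters of the identity genes, taken as 500 bp to each side of the most 5′ TSS, were mostly poor in CpG. The ratio was 0.158 for Aif1, 0.166 for Trem2, 0.189 for Csf1r, 0.211 for Cx3cr1 and 0.219 for Itgam. It was 0.266 for C1qa, 0.282 for Tmem119, 0.342 for P2ry12 and 0.635 for Sall1. The median was 0.219, against 0.552 over all protein-coding genes. In tertiles of all genes by this ratio, 7 of the 9 fell in the lowest, P2ry12 and Sall1 in the middle and 0 in the highest. The share of all genes with an assigned peak was 14.5% in the lowest tertile, 43.7% in the middle and 60.6% in the highest. The share with a peak nearest to the own TSS was 8.31%, 31.6% and 47.4%, in the same order. In the lowest tertile 3 of the 7 identity genes were assigned a peak (Cx3cr1, Aif1 and C1qa), and in the middle 1 of 2 (P2ry12). With RefSeq gene models only C1qa remained among the 7 of the lowest tertile, and P2ry12 in the middle. Promoter composition thus moved with peak presence over all genes, and its part in the values of the 9 genes was not tested.

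**Figure D3:**
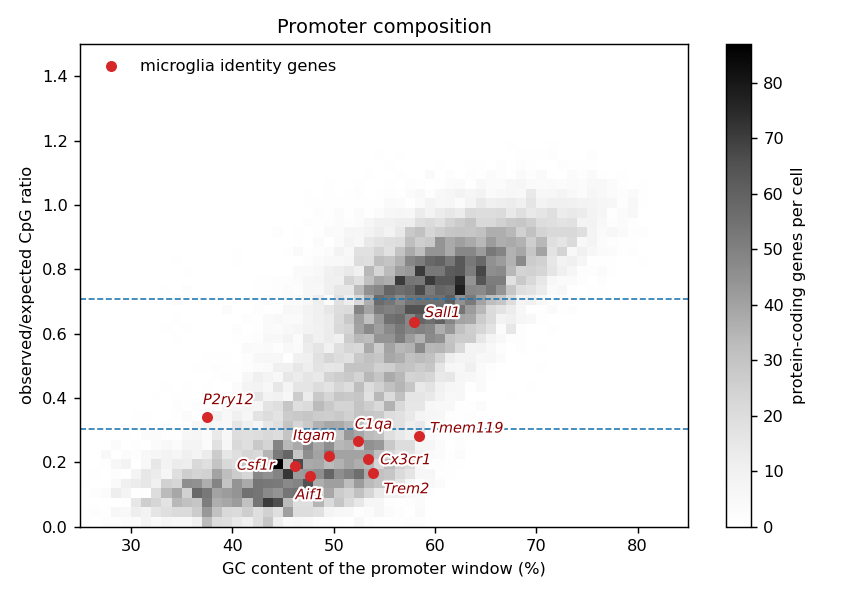
GC content (percent) and observed/expected CpG ratio of promoter windows for all protein-coding genes (grey, genes per cell) and the 9 microglia identity genes (points). Dashed lines divide all genes into tertiles by CpG ratio, at 0.303 and 0.708. The points of 7 genes lie under the lower line, with P2ry12 just above it and Sall1 higher, but under the upper line.

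The upstream sequences show the contrast directly. These are the 250 bases before a RefSeq start on mm10, for Sall1 the most 5′ of 3 starts, in the direction of transcription, with CpG dinucleotides in capitals, for Aif1 (chr17:35176053-35176302, minus strand), Trem2 (chr17:48346151-48346400, plus strand) and Sall1 (chr8:89044163-89044412, minus strand).
Aif1: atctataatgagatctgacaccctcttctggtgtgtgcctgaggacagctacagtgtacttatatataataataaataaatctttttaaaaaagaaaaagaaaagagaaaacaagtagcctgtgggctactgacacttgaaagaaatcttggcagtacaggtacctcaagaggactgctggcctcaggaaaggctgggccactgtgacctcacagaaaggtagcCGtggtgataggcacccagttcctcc
Trem2: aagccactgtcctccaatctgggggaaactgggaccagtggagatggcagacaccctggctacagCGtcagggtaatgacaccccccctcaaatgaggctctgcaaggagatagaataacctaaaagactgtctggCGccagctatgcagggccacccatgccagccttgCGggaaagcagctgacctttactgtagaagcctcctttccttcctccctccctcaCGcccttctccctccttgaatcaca
Sall1: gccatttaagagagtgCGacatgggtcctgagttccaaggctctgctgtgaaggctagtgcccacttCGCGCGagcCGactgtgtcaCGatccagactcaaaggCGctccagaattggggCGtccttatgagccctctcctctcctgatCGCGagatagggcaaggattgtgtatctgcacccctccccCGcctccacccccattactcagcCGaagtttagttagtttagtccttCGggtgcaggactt
Aif1 had 1 CpG in this stretch, Trem2 4 and Sall1 13, while the stretches before the other starts of Sall1 had 25 and 30. In the windows around the TSS, an exact EGR word was in 0 of the 9 promoters, beside 9.16% of all promoters, and a match with 1 mismatch in 1 (Sall1), beside 52.9%. The SP/KLF word GGGCGG, whose letters can overlap an EGR match, was in 2 (Tmem119 and Itgam), beside 60.4%. The AP-1 words were in the same 2 promoters, beside 12.1%, and the ETS word in 0, beside 6.86%. The EGR and SP/KLF words contain CpG, and the shares beside them are of all promoters, not of promoters of like CpG ratio. Absence of a word says only that these letters were not in the window.

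The length searched differed between genes as well, from 20.0 kb for C1qa to 178.3 kb for Cx3cr1. Over all genes, 26.4% of the tertile with the shortest search had a peak, 39.0% of the middle and 53.4% of the longest. The identity genes fell 3 to a tertile, and those with a peak were C1qa among the shortest, Aif1 in the middle, and Cx3cr1 and P2ry12 among the longest.

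Partners of the identity genes, from a wider panel of 30 microglia genes and their ligands, included genes with peaks at their own start. By the same rule 18 of the 30 had a peak (60.0%), beside 39.6% of all genes, and 11 had a peak nearest to the own TSS (36.7%), beside 29.1%. At an IDR of 0.001 or less 10 of the 30 had a peak (33.3%), beside 29.0% of all genes. A peak within 2 kb of a TSS was present at 8 of the 30, a share slightly below the 29.6% of all genes. The promoter CpG ratio of this panel had a median of 0.302. A gene of this panel and an identity gene can share a peak, as C1qb and C1qc do with C1qa.

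The ligands and surface signals had assigned peaks in 5 of 6 cases. Cx3cl1, the fractalkine that binds CX3CR1, had 4 peaks, all nearest to its own TSS. They lay 53, 977, 1721 and 3231 bp from it, with an IDR of 1.93e-08, 1.89e-07, 2.03e-06 and 0.000742. The lowest of these IDR values ranked 118. The receptor and its ligand thus differed in these values, 40973 bp to the nearest peak for Cx3cr1 and 53 bp for Cx3cl1, and a single list gives no test of the difference. Cd200, a neuronal brake on microglia, had 1 peak 38 bp from its TSS with an IDR of 0.00286. Cd47, the signal against phagocytosis, had 1 at 182 bp with an IDR of 5.26e-07. Its receptor Sirpa had 3, the closest at 27 bp, with a lowest IDR of 8.21e-07. Of the ligands of CSF1R, Csf1 had 0 peaks and its nearest at 35939 bp, while Il34 had 2, at 9607 and 12426 bp from its own TSS and nearer to the noncoding Gm15894. Tgfb1, the ligand by which microglial identity is maintained, had 1 at 5958 bp, which lay 114 bp from the TSS of B9d2.

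Beside the mismatched words above, exact EGR words were present in some peaks of this panel, those of Olfml3, Tgfbr1, Runx1 and Cd200. The other peaks of the panel, among them those of Cx3cl1, Cd47 and Sirpa, held none. Of all peaks on assembled chromosomes 16.6% held an exact word, and a difference between the panel and the identity genes was not tested. Around the word the 30 bases read as follows at Cd200 (minus strand, chr16:45409073-45409102) and upstream of Tgfbr1, a receptor of TGF-beta (plus strand, chr4:47353020-47353049), with the word in capitals.
Cd200: gcgagaacctgGCGGGGGCGggggcagggg
Tgfbr1: gcccagcagtGCGGGGGCGtggttagaggc

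Among receptors, integrins and adaptors of the panel, 5 of 13 had a peak (38.5%), beside 39.6% of all protein-coding genes. A peak nearest to the own TSS was present at 3 (23.1%), beside 29.1%. Tgfbr1 had 2, at 148 and 172 bp from a TSS, with a lowest IDR of 6.12e-08, and Tgfbr2 had 1 in an intron, 36321 bp from its TSS, with an IDR of 0.0144. P2ry6, a UDP receptor of phagocytosis, had 1 at 21427 bp. Tyrobp, the adaptor of TREM2, had 2 at 8790 and 9429 bp, both nearest to Nfkbid, an NF-kappa-B regulator, and Itgb2, the beta partner of CD11b, had 0 with the nearest at 14623 bp. P2ry13, next to P2ry12, had 0.

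Of the complement, lysosomal and secreted proteins 5 of 7 had a peak (71.4%), beside 39.6% of all protein-coding genes. A peak nearest to the own TSS was present at 3 (42.9%), beside 29.1%. C1qb and C1qc were both counted from the peak also assigned to C1qa. Olfml3, a secreted microglial protein, had 1 at 69 bp from its TSS with an IDR of 0.00194. Cd68, a lysosomal glycoprotein, had 2, at 3469 and 5349 bp, which were 6 bp from the TSS of Mpdu1 and 52 bp from that of Eif4a1. Ctss, the protease cathepsin S, had 1 at 9163 bp with an IDR of 0.00752. Among transcription factors Irf8, needed for microglial development, had 1 at 143 bp with an IDR of 0.000572, Spi1, which encodes PU.1, had 2 intronic peaks at 5078 and 5698 bp, and Runx1 had 1 in a coding exon at 89649 bp.

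**Figure D4:**
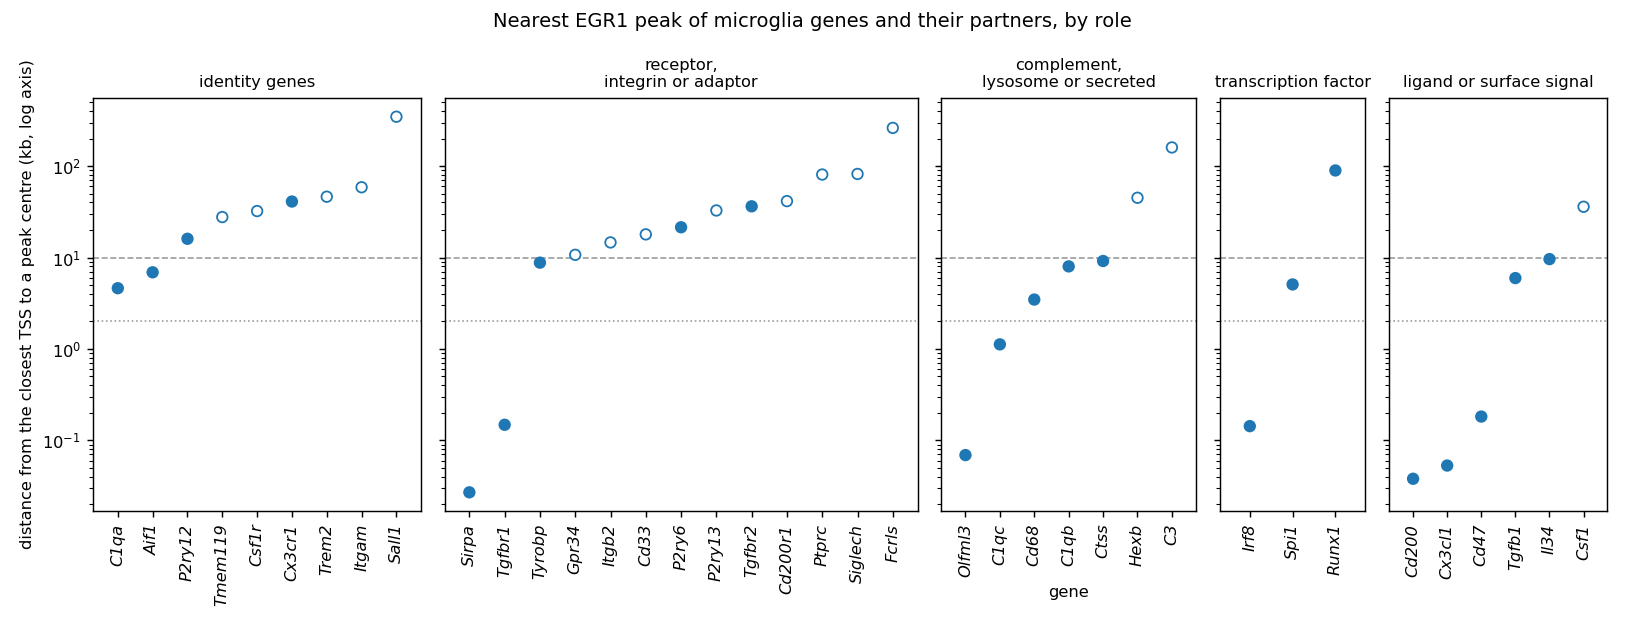
Distance from the closest TSS to a peak centre (kb, log axis) for the 9 microglia identity genes and 29 genes of the wider panel, grouped by role. Filled points had an assigned peak, open points had none, the dotted line is 2 kb and the dashed line 10 kb. No identity gene lies under the dotted line, while 8 genes of the panel do, among them Cx3cl1, Cd200 and Cd47. Of all protein-coding genes 29.6% have a peak within 2 kb.

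Beside marker panels of other cortical cell types, the 4 identity genes with any peak lay between counts of 3 and 5. Their 0 with an own peak lay below counts of 2 to 5. Of all protein-coding genes 39.6% had a peak and 29.1% an own one. Of 9 astrocyte genes 3 had a peak and 2 an own one, with Aldoc, Slc1a2 and Sox9 assigned. The Aldoc peak lay 8 bp from the TSS of Pigs, whereas Slc1a2, the glutamate transporter, had a peak 3 bp from its own. Of 9 oligodendrocyte genes 3 had a peak, each with an own one, and these were Mbp, Mobp and Cnp, with Cnp at 59 bp. Of 9 projection neuron genes 5 had a peak, each with an own one, and the genes of this panel counted 16 peaks in all, among them 4 each at Slc17a7 and Bcl11b and 2 at Cux2. The median CpG ratio of the promoters was 0.313, 0.320 and 0.522 in these panels, and the projection neuron genes were searched over a median of 103.2 kb, against 26.9 kb for the identity genes. Lists of 9 chosen genes give no test of a difference.

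**Figure D5:**
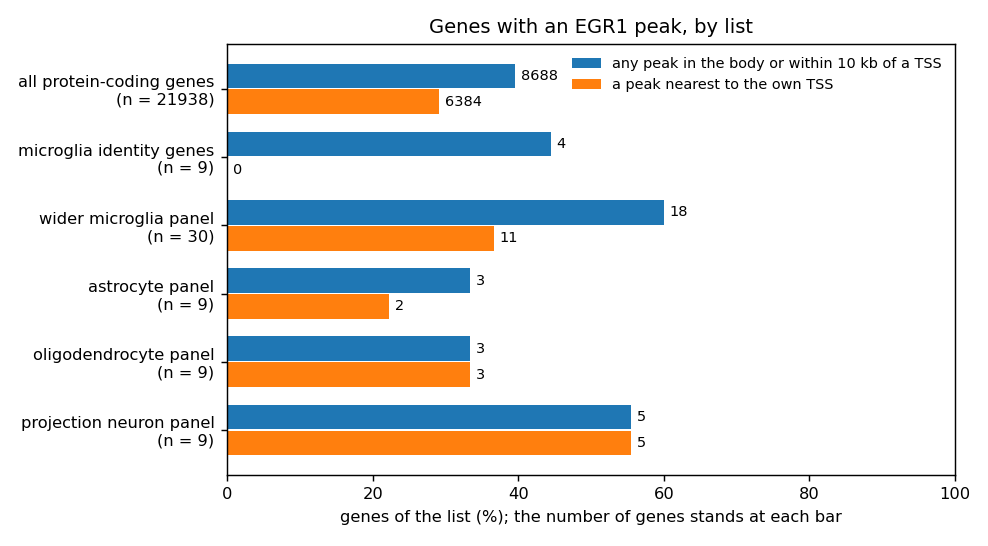
Percent of the genes of each list with any assigned peak (blue) and with a peak nearest to the own TSS (orange), with the number of genes at each bar. The microglia identity genes have 4 and 0 of 9 and the astrocyte panel 3 and 2 of 9. The oligodendrocyte panel has 3 and 3 of 9, the projection neuron panel 5 and 5 of 9. Of all protein-coding genes 39.6% have any assigned peak and 29.1% one nearest to the own TSS.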

How the data were processed

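The deposited EGR1 peak list of mouse frontal cortex gives a start, an end and an IDR, read like a q-value, for each peak. Per the study's methods, reads were trimmed by quality and aligned to mm10 by Bowtie, SPP called peaks for each replicate, and the authors merged peaks at an IDR of up to 2%. The submitters' processing notes name Bowtie2 2.2.9 and bedtools 2.26.0. Depth per sample and per peak is unknown.

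The sources used here do not state how positions are counted, so BED counting was assumed, and they are printed from 1. Genes, TSSs and support levels came from GENCODE M21, bases from GRCm38.p6, and promoter sequences from RefSeq, with 6 of the 9 genes matched. The 76 peaks on scaffolds were not assigned. Values are descriptions without tests. Python 3.11.15, pandas 2.3.3, pysam 0.24.0 and matplotlib 3.10.9 were used, and assignment was tested on simulated data (300 of 300 planted genes recovered).

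The genes, panels and roles were chosen with earlier results of these data known. Named were the 9 genes, genes nearest to their peaks, neighbours of those without a peak, their partners, and up to 12 other panel genes and 3 of each comparison panel by lowest IDR. Slc25a38, Gm26403, Gm33800, Xirp1, Nfya, Tgfb1, B9d2, P2ry13, Gm15894, Nfkbid, Mpdu1, Eif4a1 and Pigs were named after their values were seen. The values of 1 panel gene and the sequence of 1 peak are not reported here, though both are in the counts.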

Additional observations from a re-analysis of the deposited data

How the results depend on the processing

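Of 88 alternatives, 66 left a count or median within 1.5 times its value, or a share within its 95% Wilson interval, and 22 moved it. With the gene body and 2 kb around a TSS, with TSS distance only, or with RefSeq gene models, 2 identity genes had a peak, and with the body and 50 kb 7 had. Their peaks numbered 3 at an IDR of 0.001 or less, 16 with 50 kb, 2 with TSS distance only, 2 with RefSeq and 3 without transcripts of support level 5, where the body of Cx3cr1 no longer reaches its 3 peaks. Of the RefSeq peaks 1, that of P2ry12, was nearest to a member. The median distance to the nearest peak rose to 58717 bp at an IDR of 0.001 or less. EGR words with 1 mismatch were in 66.7% of the peaks, against 0 exact ones in the peaks and 16.7% in the 500 bp around their centres. The share of all protein-coding genes with a peak was 37.0% and 29.0% at an IDR of 0.01 and 0.001, 34.2% with the body and 2 kb, 58.7% with the body and 50 kb, 37.2% with TSS distance only, 38.5% with coding transcripts only and 38.3% with RefSeq. The wider panel had 10 genes with a peak at an IDR of 0.001 or less, and the astrocyte and oligodendrocyte panels had 6 each with 50 kb. RefSeq models, the support level filter and the RefSeq start for promoters were chosen after seeing the data.

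A single merged list has no replicate to leave out. No paired analysis was possible because the result comes from no test. Without read counts, a locus with no peak cannot be told from one under the peak caller's limit.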
